A study of Mus musculus with 6 samples.

Results

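The genes described here encode 8 surface molecules through which blood vessels meet leukocytes: Icam1, Icam2, Vcam1, Sele, Selp, Cd34, Podxl and Mcam. They were taken by symbol from the deposited gene counts. They were chosen as a functional family and not by a cut on their values, though earlier results of these data were known. All 8 were among the 24421 symbols counted in every library. The libraries were made from endothelial cells sorted by flow cytometry from subcutaneous B16F0 tumours, a transplantable mouse melanoma, grown for 17 days in C57BL/6 mice. In the 15C4 group (3 libraries) the mice received 15C4, an antibody that blocks the circulating glycoprotein LRG1, at 50 mg/kg every 3 days. In the IgG group (3 libraries) they received control IgG on the same schedule. All mice carried the tumour, and no group without tumour or without antibody was analysed here. The age and sex of the mice, the surface markers of the sort and whether each library is a different animal were not found in the labels. The p-values therefore cover no more than library-to-library spread, and that may be technical. The comparison sets tumour endothelium under LRG1 blockade against endothelium under control IgG.

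Leukocytes leave the blood in steps that these molecules divide among them. The selectins on activated endothelium, E-selectin (Sele) and P-selectin (Selp), catch flowing cells by binding sialylated and fucosylated glycans. The immunoglobulin-like molecules ICAM-1, ICAM-2 and VCAM-1 bind leukocyte integrins and hold the cells firmly. The sialomucins CD34 and podocalyxin (Podxl) carry glycans that serve leukocyte docking in specialised venules and otherwise coat the luminal surface, while MCAM (CD146) sits at endothelial junctions. Icam1, Vcam1 and Sele are induced in endothelium by inflammatory cytokines through NF-kappaB, and tumour endothelium is known for low levels of them. Icam2, Cd34, Podxl and Mcam are made without such a stimulus.

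The libraries held between 5175600 and 19572202 counts. The 22 pan-endothelial genes of the marker list, none of which is among the 8, were detected in both groups. They summed to 2582, 3910 and 2422 CPM (counts scaled to each library's total) in the libraries 15C4 1, 2 and 3, against 2550, 3274 and 262 CPM in IgG 1, 2 and 3, so that IgG 3 held far fewer endothelial transcripts than the others. The 13 melanocyte markers summed to between 25000 and 29240 CPM under 15C4 and between 25590 and 29800 CPM under IgG, so every library also held abundant RNA of the tumour cells. The first principal component (46.0% of the variance) set 15C4 3 off from the rest, and this library had 1537 of the 11144 tested genes at 0. IgG 2 held lymphatic markers at 1168 CPM, against at most 63.8 CPM in the other libraries. IgG 1 held T and NK cell markers at 606 CPM, against at most 220 CPM in the others. That next highest sum, in 15C4 1, was nearly all Ccl5 at 214 CPM, with Nkg7 at 1.90 and Gzma at 1.31 CPM. In IgG 1 Gzma was at 178, Ccl5 at 124 and Nkg7 at 105.5 CPM. Among the T cell genes there, Cd3g was at 10.2, Cd3d at 0.966, Cd3e at 0.580, Cd8a at 0.193 and Cd4 at 0 CPM. In these bulk samples, fewer cells of a type and less RNA per cell cannot be told apart.

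None of the 7 genes that could be tested differed between the groups beyond the spread of the libraries, and the eighth, Sele, was high in 1 library. With edgeR's quasi-likelihood test, 0 of the 7 passed an adjusted p of 0.05, where 0 of all 11144 genes tested passed (0%). At an unadjusted p under 0.05 the count was 0 of the 7 members, against 288 genes (2.58%) of all tested. Among all genes DESeq2 called 26 of the 10324 with an adjusted p (0.252%) and limma-voom called 0. Neither called any of the 7 members, and Sele, removed by the filter, was in neither fit. In CPM, the 15C4 and IgG libraries overlapped for all 8 members, and they did not overlap for 9.52% of all genes tested. Of the 7 fitted log2 fold changes (15C4 over IgG), 5 were above 0 and 2 below, with a median of 0.20, against 50.7% above 0 and a median of 0.01 over all genes tested. Sele was left out by the filter on low counts and is given as counts. The members differed from each other mainly in how they were spread over the libraries.

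**Figure D1:**
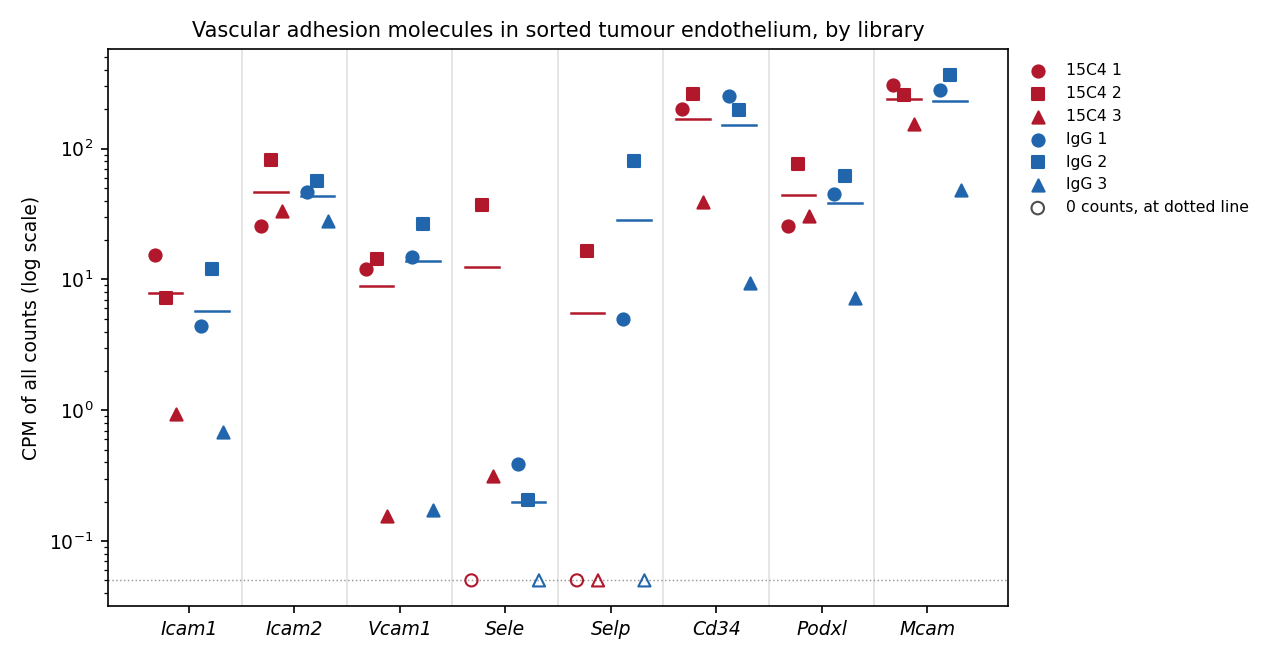
CPM of all counts on a log scale for the 8 members. Each point is 1 library (red 15C4, blue IgG, shape by library number), short lines are group means, and open points on the dotted line had 0 counts. Sele was high in 15C4 2 alone, Vcam1 was below 0.2 CPM in 15C4 3 and IgG 3, and the groups overlapped for every member.

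Sele encodes E-selectin. It had 0, 727 and 2 counts under 15C4 and 2, 2 and 0 counts under IgG. That is 0, 37.1 and 0.313 CPM under 15C4 and 0.386, 0.207 and 0 CPM under IgG. 15C4 2 was thus the only library with E-selectin above the level of 3 counts, which corresponds to between 0.153 and 0.580 CPM depending on depth. Summed over the groups, 729 counts under 15C4 stood against 4 under IgG, and 2 against 4 once 15C4 2 was left out, where no library is above 3 counts and no fold is given. In the authors' deposited table, Sele has a log2 fold change of -6.24 for IgG over 15C4, that is higher under 15C4, with an adjusted p of 0.0126. The authors' deposited table has 507 of 14112 genes under an adjusted p of 0.05 (3.59%), and Sele is the only member among them. Its deposited group means are 116 normalised counts under 15C4 and 2 under IgG, and in that authors' deposited table the other 7 members have adjusted p-values of 0.821 or more. The deposited overall mean of Sele, 143.92, lies above both group means. The authors' fit therefore did not rest on these 6 libraries alone, and its adjusted p is not a result of 3 libraries against 3. Without the filter on low counts, edgeR gave Sele a log2 fold change of 6.14 (SE 2.45; quasi-likelihood test, unadjusted p = 0.0219, adjusted p = 0.898). Over the 6 libraries, 97.6% of its summed CPM lay in 15C4 2.

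Selp encodes P-selectin, which endothelial cells store in granules and move to the surface on activation. It had 0, 324 and 0 counts under 15C4 (0, 16.6 and 0 CPM) and 26, 774 and 0 counts under IgG (5.02, 80.3 and 0 CPM). IgG 2 held 78.8% of its CPM summed over the 6 libraries, a share that 0.440% of the tested genes reached in their own highest library. The mean was 5.52 ± 9.56 CPM under 15C4 and 28.4 ± 45.0 CPM under IgG (SD, n = 3 each), and the log2 fold change was -2.21 (SE 2.47; edgeR quasi-likelihood test, adjusted p = 1.00). The direction was set by single libraries. Without IgG 2 the log2 fold change was 1.26, where 324 counts under 15C4, all in 15C4 2, faced 26 under IgG. Without 15C4 2 there were 0 counts under 15C4 and 800 under IgG, of which 774 were in IgG 2 and 0 in IgG 3. At 3 counts over the group that is at least 149-fold lower under 15C4. This bound covers counting error only, rests on IgG 2 and is no measure of a group difference.

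Sele and Selp lie close to each other. On GRCm38, in the GENCODE M21 annotation, Sele lies on chromosome 1 from 164048234 to 164057677 and Selp from 164115264 to 164150026, both on the plus strand, 57.6 kb apart. The 2 genes were highest in different libraries, Sele in 15C4 2 and Selp in IgG 2.

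Their promoters are shown with that of Icam1 because these genes are the cytokine-responsive or granule-stored members for which RefSeq gave a start. Each line holds the 250 bases before the start in RefSeq GRCm38.p6, plus strand, with matches to the letters GGNNNTTCC, a common form of the NF-kappaB site, in capitals. Both strands were searched.
Sele, chr1:164047984-164048233: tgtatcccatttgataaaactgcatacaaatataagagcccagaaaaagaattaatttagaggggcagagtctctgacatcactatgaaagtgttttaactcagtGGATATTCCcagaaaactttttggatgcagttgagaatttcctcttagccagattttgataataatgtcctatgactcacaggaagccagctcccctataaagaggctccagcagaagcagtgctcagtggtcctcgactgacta
Selp, chr1:164115014-164115263: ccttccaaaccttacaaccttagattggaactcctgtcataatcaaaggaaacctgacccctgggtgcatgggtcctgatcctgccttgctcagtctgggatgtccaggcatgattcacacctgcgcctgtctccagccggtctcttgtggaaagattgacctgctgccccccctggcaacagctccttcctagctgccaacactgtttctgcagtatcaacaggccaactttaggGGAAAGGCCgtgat
Icam1, chr9:21015690-21015939: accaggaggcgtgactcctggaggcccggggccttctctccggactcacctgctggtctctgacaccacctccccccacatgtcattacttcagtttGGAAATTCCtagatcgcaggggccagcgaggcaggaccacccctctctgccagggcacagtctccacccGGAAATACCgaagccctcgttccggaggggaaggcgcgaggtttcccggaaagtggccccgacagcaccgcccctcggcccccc
Sele held 1 match, 145 to 137 bases before the start. Icam1 held 2, one 153 to 145 bases before the start that matches on both strands and one 84 to 76 bases before it in reverse. Selp held 1, in reverse, 14 to 6 bases before the start. Such a match was present in 15.7% of all 32851 promoter windows of this length. The letters TATAAA stood 49 to 44 bases before the start of Sele and were in 12.4% of all windows. They were found in neither the Selp nor the Icam1 window. The windows of Cd34 and Mcam, the other members with a RefSeq entry, were searched as well and held no match to either motif. The motif was chosen with these promoters in view, and a match is a description of letters, not of binding.

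Genes of a list chosen for venous vessels, where leukocytes mostly leave the blood, were read beside the selectins. They summed to 333, 309 and 91.7 CPM under 15C4 and to 258, 589 and 122 CPM under IgG. Nr2f2 and Nrp2 were the largest parts in every library, at 161 and 283 CPM in IgG 2 and 54.6 and 63.2 CPM in IgG 3. IgG 2 also held the most lymphatic markers and IgG 3 few endothelial transcripts. The sums are therefore no measure of venous vessels alone. Ackr1, a chemokine-binding receptor of venules, was at 0, 18.6 and 0 CPM under 15C4 and at 1.35, 3.94 and 0 CPM under IgG. Its highest library, 15C4 2, was that of Sele. Vwf, which encodes von Willebrand factor of the P-selectin granules, was at 13.8, 12.0 and 5.01 CPM under 15C4 and at 7.15, 56.3 and 2.91 CPM under IgG, with its highest value in IgG 2, as for Selp. Lrg1, the gene of the antibody's target, was at 0, 3.32 and 0 CPM under 15C4 and at 0.773, 19.7 and 0 CPM under IgG. The lymphatic genes Mmrn1 and Lyve1 reached 578 and 367 CPM in IgG 2, while in 15C4 2, the second library with Selp above 10 CPM, they were at 0.153 and 0 CPM. The part of lymphatic cells in the Selp level of IgG 2 was not tested.

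**Figure D2:**
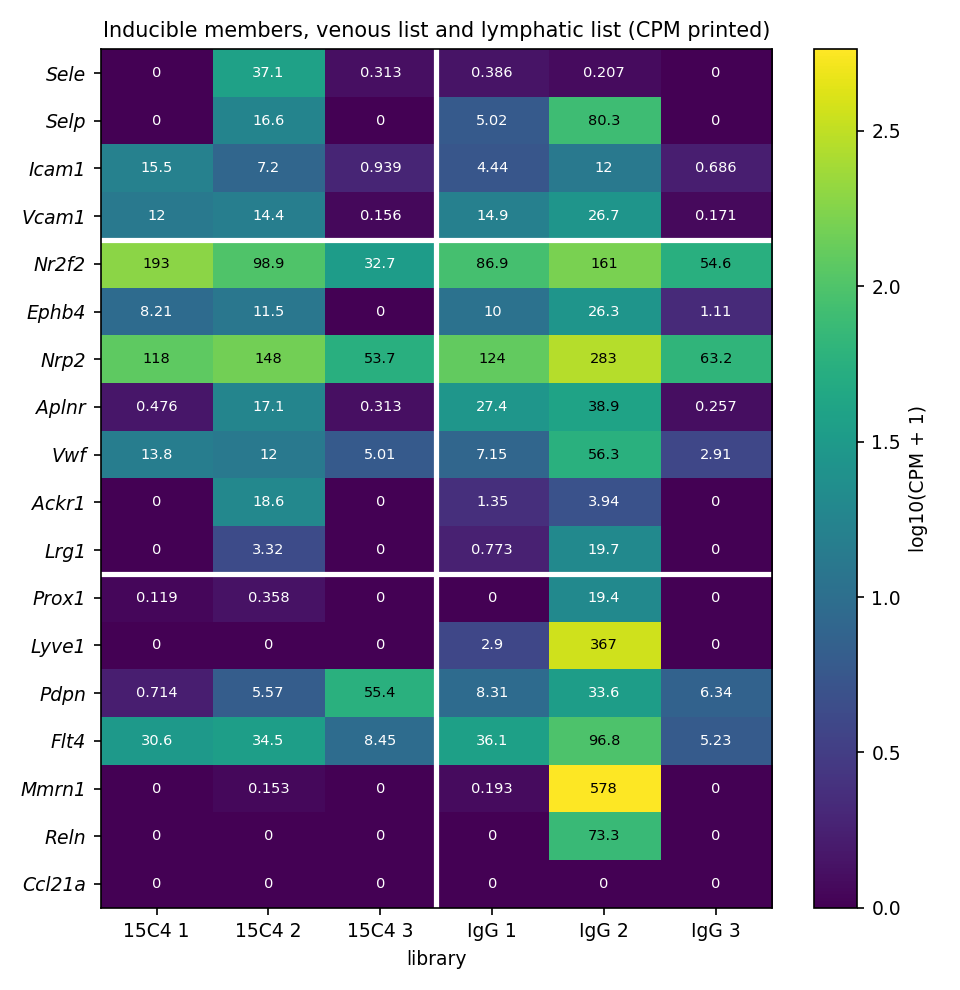
CPM of Sele, Selp, Icam1 and Vcam1 beside the venous and lymphatic marker lists in each library. Colour is log10(CPM + 1), and the CPM is printed in each cell. Sele and Ackr1 had their highest level in 15C4 2, and Selp, Vwf, Lrg1 and the lymphatic genes Mmrn1 and Lyve1 in IgG 2.

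Icam1 encodes ICAM-1, the inducible partner of the leukocyte integrins LFA-1 and Mac-1. It was at 15.5, 7.20 and 0.939 CPM under 15C4 and at 4.44, 12.0 and 0.686 CPM under IgG. 15C4 3 and IgG 3 were the lowest, with 6 and 8 counts. The mean was 7.87 ± 7.29 CPM under 15C4 and 5.72 ± 5.78 CPM under IgG (SD, n = 3 each), and the log2 fold change was 0.49 (SE 1.41; edgeR adjusted p = 1.00). It was -0.34 without 15C4 1 and -0.01 without IgG 3.

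Vcam1 encodes VCAM-1, the partner of the integrin VLA-4. It was at 12.0, 14.4 and 0.156 CPM under 15C4 and at 14.9, 26.7 and 0.171 CPM under IgG. The 2 libraries numbered 3 thus held 1 and 2 counts, below the level of 3 counts, while the other 4 held 77 to 281. The mean was 8.85 ± 7.61 CPM under 15C4 and 13.9 ± 13.3 CPM under IgG (SD, n = 3 each), and the log2 fold change was -0.59 (SE 1.67; edgeR adjusted p = 1.00). It was 0.28 without IgG 2 and 0.80 by limma-voom. Over the 6 libraries its log2 CPM had an SD of 2.87, which 5.07% of the tested genes exceeded, and the median gene had 0.917.

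The pan-endothelial genes summed to 2422 CPM in 15C4 3, where Vcam1 was low, but they were uneven there. Cdh5, the gene of VE-cadherin, was at 970 CPM there, against 46.3 CPM in IgG 3. Cd93 and S1pr1 were at 412 and 397 CPM in 15C4 3. Kdr was at 61.5, Pecam1 at 51.2 and Tie1 at 6.57 CPM there, each below every other library except IgG 3. Cldn5 was at 0 CPM there. The part of endothelial content in the low Vcam1 was not tested. The NF-kappaB and cytokine list summed to 2109, 848 and 650 CPM under 15C4 and to 887, 1749 and 433 CPM under IgG. In 15C4 3 some of its genes were within the range of the other libraries and some were lowest of all. Rela, an NF-kappaB subunit, was at 30.8 CPM there, above the 15.7 and 13.9 CPM of 15C4 1 and 15C4 2. Irf1, an interferon-induced transcription factor, was at 6.57 CPM in 15C4 3, against 73.8 to 340 CPM in the other 5 libraries. Nfkb1 was at 0.626 CPM, against 19.7 to 35.4 CPM. Nfkbia (11.1 CPM), Tnfrsf1a (35.2 CPM) and Tnfaip3 (0 CPM) were also lowest in 15C4 3. Il1r1, the receptor for interleukin 1, was at 16.9, 32.9 and 0.313 CPM under 15C4 and at 3.67, 3.42 and 0 CPM under IgG. 15C4 3 also had the most tested genes at 0, and the part of that loss in these values was not tested.

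Vcam1 is also known from pericytes, fibroblasts and macrophages, and Icam1 from leukocytes. Pericyte and smooth muscle markers, of which 11 of 12 were detected, summed to between 63.0 and 84.3 CPM under 15C4 and between 10.5 and 103 CPM under IgG. Their defining Higd1b was at 0 in every library and Pdgfrb at 5.82 CPM or less, while Abcc9 reached 59.4, Kcnj8 40.2 and Acta2 32.2 CPM. All 10 fibroblast markers were detected, at sums of 0.119 to 155 CPM under 15C4 and 1.71 to 101 CPM under IgG. The highest sum, in 15C4 3, was nearly all Lum at 151 CPM, with Col3a1 at 0.782 and Col1a2 at 0.469 CPM there. In IgG 1 the signal was spread over more of the list, with Col3a1 at 25.5, Col1a2 at 24.3 and Lum at 22.4 CPM. All 13 macrophage markers were detected, at 0.469 to 75.3 CPM under 15C4 and 18.3 to 207 CPM under IgG, with Csf1r at 0.386 CPM or less. The highest sum, in IgG 1, was led by Ptprc, which all leukocytes carry, at 86.9 CPM. Tyrobp and Fcer1g were at 42.9 CPM each there and Ccr2 at 15.5 CPM, while C1qa, C1qc and Mrc1 were at 0.193 CPM each. C1qc reached 19.7 CPM in 15C4 2 and Cd68 27.2 CPM in IgG 3. The part of these cells in the Icam1 and Vcam1 levels was not tested.

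Icam2 encodes ICAM-2, a constitutive endothelial partner of LFA-1. It was at 25.5, 82.0 and 33.3 CPM under 15C4 and at 46.6, 56.6 and 28.2 CPM under IgG. Its highest library exceeded its lowest 3.22-fold, the narrowest range of the 8 members. The mean was 46.9 ± 30.6 CPM under 15C4 and 43.8 ± 14.4 CPM under IgG (SD, n = 3 each), and the log2 fold change was 0.21 (SE 0.63; edgeR adjusted p = 1.00). It was -0.45 without 15C4 2 and -0.0031 without IgG 3. Unlike the pan-endothelial sum, Icam2 in IgG 3 was within the range of the 15C4 libraries.

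The sialomucin gene Cd34 was at 202, 262 and 39.0 CPM under 15C4 and at 252, 197 and 9.43 CPM under IgG. Again the libraries numbered 3 were the lowest of each group. Its log2 fold change was 0.20 (SE 1.00; edgeR adjusted p = 1.00), and it was -0.30 without 15C4 2 and -0.34 without IgG 3. Cd34 is also known from haematopoietic progenitors and some fibroblasts. Of the 7 progenitor and mast cell markers, Mpo, Cpa3 and Fcer1a were at 0 in all libraries and Flt3 was at 0.193 CPM or less. The list summed to between 86.2 and 507 CPM under 15C4 and between 48.2 and 206 CPM under IgG, led by Mecom at 35.1 to 375 CPM and Kit at 1.54 to 132 CPM over the 6 libraries, and Gata2 reached 20.7 CPM. Their part in the Cd34 level was not tested.

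Podxl encodes podocalyxin, a heavily sialylated protein tied to actin through ezrin-family linkers. It was at 25.8, 76.6 and 30.3 CPM under 15C4 and at 44.8, 62.3 and 7.20 CPM under IgG. Its log2 fold change was 0.33 (SE 0.83; edgeR adjusted p = 1.00), and it was -0.31 without 15C4 2 and -0.14 without IgG 3.

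Mcam was at 309, 259 and 153 CPM under 15C4 and at 280, 369 and 48.6 CPM under IgG. Its log2 fold change was 0.12 (SE 0.63; edgeR adjusted p = 1.00). The value was -0.0089 without 15C4 1, -0.33 without IgG 3 and -0.15 without both libraries numbered 3, a setting added after the data were seen. MCAM is also known from pericytes and was named for its presence in human melanoma, and the melanocyte markers given above were abundant in every library. Their part in the Mcam level was not tested.

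**Figure D3:**
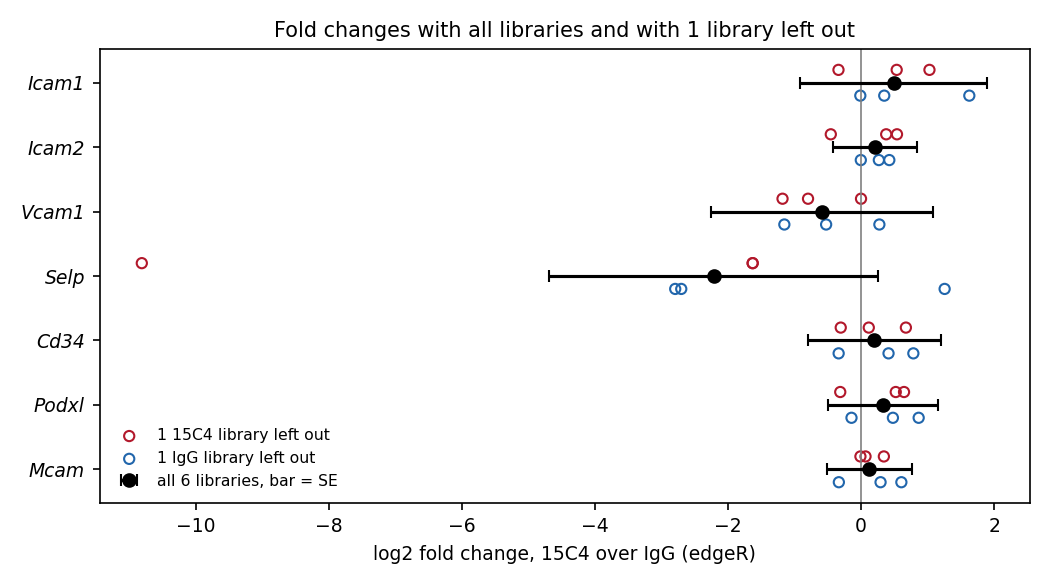
log2 fold change of 15C4 over IgG for the 7 tested members. Black points with SE bars use all 6 libraries, and open circles leave out 1 library (red 15C4, blue IgG). Each of the 7 has values on either side of 0 once libraries are left out in turn, and Selp runs between -10.8 and 1.26.

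Levels of different genes were compared per length of exon. Mcam led in 5 libraries, at 92.3, 77.4 and 45.8 CPM per kb under 15C4 and at 83.7 and 110 CPM per kb in IgG 1 and IgG 2. In IgG 3, Icam2 led with 14.8 CPM per kb, next to Mcam with 14.5. On group means, Mcam stood at 71.8 ± 23.8 CPM per kb under 15C4 and 69.5 ± 49.4 under IgG. Icam2 followed with 24.6 ± 16.1 under 15C4 and 23.0 ± 7.57 under IgG, next to Cd34 with 23.0 ± 15.8 under 15C4 and 20.9 ± 17.4 under IgG. Podxl was at 8.07 ± 5.12 CPM per kb under 15C4 and 6.95 ± 5.13 under IgG. Sele was at 4.29 ± 7.33 CPM per kb under 15C4 and 0.0680 ± 0.0664 under IgG, and Selp at 1.25 ± 2.17 under 15C4 and 6.44 ± 10.2 under IgG. Icam1 stood at 1.81 ± 1.67 CPM per kb under 15C4 and 1.31 ± 1.33 under IgG, and Vcam1 at 0.997 ± 0.858 under 15C4 and 1.57 ± 1.496 under IgG (SD, n = 3 for each mean). With the members ordered by mean within each group, Mcam and Icam2 under 15C4 were the only neighbours further apart than the larger of their SDs. Mcam and Cd34 together made up between 69.0% and 86.7% of the members' CPM under 15C4 and between 61.6% and 82.1% under IgG.

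Because endothelial content differed between the libraries, the members were also set against the counts of the 22 pan-endothelial genes. Summed over the 8 members there were 229, 193 and 106 counts per 1000 pan-endothelial counts under 15C4 and 254, 246 and 359 under IgG, so on this scale the groups did not overlap. Among all genes tested, 11.2% lay in all 15C4 libraries below all IgG libraries on this scale, against 0.179% above. Against the 5 core endothelial genes (Cdh5, Pecam1, Kdr, Tek and Tie1) the sums were 864, 442 and 230 under 15C4 and 724, 534 and 1419 under IgG, and the groups overlapped, where 6.86% of all genes tested lay all below and 0.144% all above. IgG 3 gave only 3062 pan-endothelial counts, of which 775 came from the core genes, and it had the highest sum on both scales.

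Singly, no member was free of overlap between the groups on the scale of the 22 genes. Mcam was at 120, 66.3 and 63.3 counts per 1000 under 15C4 and at 110, 113 and 185 under IgG (log2 ratio -0.73, SE 0.38; two-sided exact permutation p = 0.3). Podxl was at 10.006, 19.6 and 12.5 under 15C4 and at 17.6, 19.0 and 27.4 under IgG (log2 ratio -0.63, SE 0.35; exact p = 0.3). Icam2 was at 9.87, 21.0 and 13.8 under 15C4 and at 18.3, 17.3 and 107 under IgG (log2 ratio -1.19, SE 0.92; exact p = 0.3), and its high value in IgG 3 stood far above all others. The smallest p that 3 libraries against 3 can give in this test is 0.1, so it could not pass 0.05. The exact p was 0.3 for Selp, 0.5 for Vcam1, 0.7 for Cd34, 0.8 for Icam1 and 0.9 for Sele. The log2 ratio was below 0 for 7 members and 1.28 for Sele, which was -1.14 without 15C4 2. The share of all genes below 0 on this scale was not computed. Of the 22 genes that set the scale, 18 were fitted above 0 by edgeR (median log2 fold change 0.44), which lowers ratios under 15C4. The count of 7 is therefore not read as a result about the members. For Icam1 (-0.66), Vcam1 (-1.60) and Cd34 (-0.45) it was 0.38, 0.40 and 0.28 without 15C4 3.

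**Figure D4:**
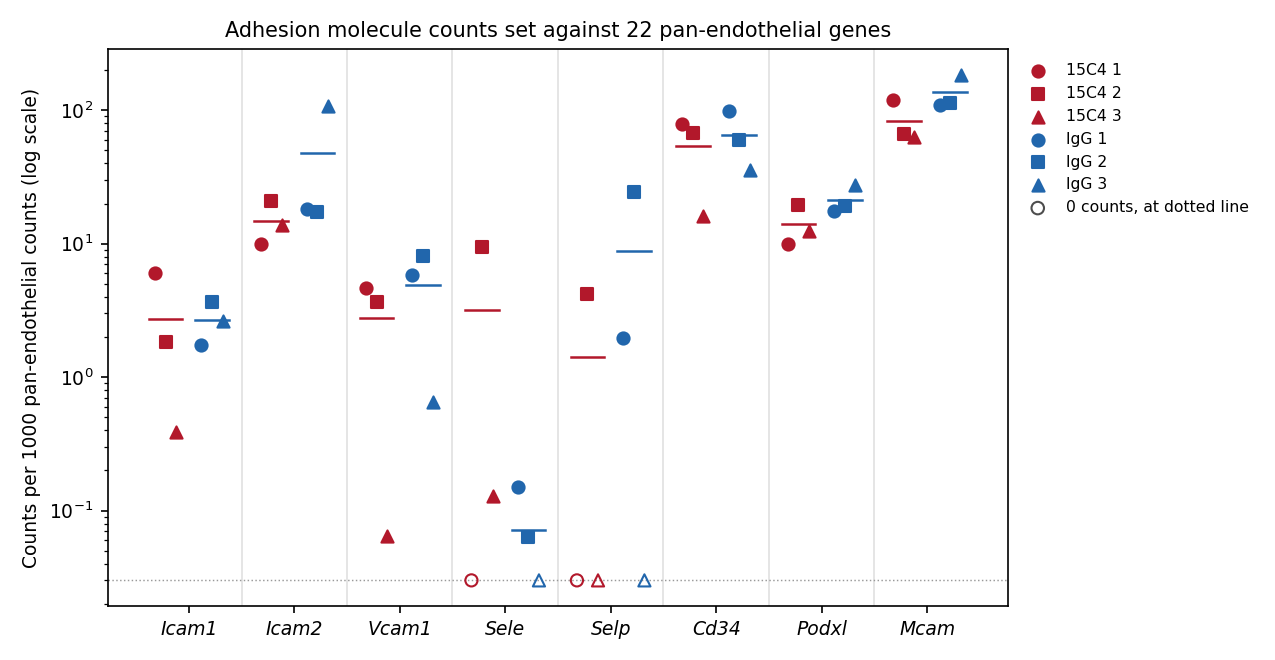
Counts of each member per 1000 counts of the 22 pan-endothelial genes, on a log scale. Points are libraries, lines are group means, and open points on the dotted line had 0 counts. Icam2 and Mcam were highest in IgG 3, at 107 and 185, and Icam1 and Vcam1 lowest in 15C4 3.

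The genes whose levels ran most like a member's over the 6 libraries were found by the root mean square (RMS) difference of log2 CPM after each gene's mean was subtracted. For Podxl they were Robo4, an endothelial guidance receptor, with 0.235, Irf2 with 0.238 and Shank3 with 0.257, against a median of 1.41 over all genes. For Cd34 they were Notch1 with 0.330, Lamb1 with 0.337 and Gimap4 with 0.421 (median 1.94). For Selp they were Ebf1 with 0.354, Tnfsf10 with 0.669 and Tgm2 with 0.783 (median 3.51). Mcam was nearest to Marcksl1 (0.191), Dlc1 (0.247) and Dpysl3 (0.259). Icam1 was nearest to Ager (0.265), Hdac7 (0.296) and Shroom4 (0.315), and Vcam1 to Tmem223 (0.266), Rnf125 (0.290) and Fbxl2 (0.359). Icam2 was nearest to Cxcr5, a chemokine receptor known from lymphocytes, with 0.0332, ahead of Prnp (0.140) and Proser2 (0.166). Among the members themselves, Podxl and Mcam were each other's nearest, with 0.540.

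Counter-receptor genes of the leukocyte side were read as a list of 12, of which 6 could be tested, all 6 fitted below 0 and 0 called. Itgb2, the shared chain of LFA-1 and Mac-1, was at 0.595, 0.204 and 0 CPM under 15C4 and at 40.4, 1.24 and 3.86 CPM under IgG (log2 fold change -5.74, SE 1.91; edgeR adjusted p = 1.00). The high library was IgG 1, which also held the most T and NK cell markers. Itga4, the alpha chain of VLA-4, was at 7.86, 32.7 and 0.313 CPM under 15C4 and at 37.3, 23.5 and 146 CPM under IgG, highest in IgG 3, where the markers of T and NK cells came to 9.17 CPM. Of the widely expressed pair, Cd44 averaged 1562 ± 299 CPM under 15C4 and 1734 ± 358 CPM under IgG, and Itgb1 718 ± 51.5 CPM under 15C4 and 1016 ± 187 CPM under IgG (SD, n = 3 each). Cd44 ran from 1302 CPM in 15C4 2 to 2141 CPM in IgG 3, and every library held the abundant tumour cell RNA given above. These levels are therefore no measure of leukocytes alone, and the part of leukocytes in them was not tested.

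Of the 12 enzymes that build selectin-binding glycans, 9 were tested, with 7 fitted above 0, 2 below and 0 called. Chst1, a sulfotransferase, was at 41.8, 17.9 and 32.5 CPM under 15C4 and at 9.85, 6.53 and 2.14 CPM under IgG (log2 fold change 2.40, SE 0.85; edgeR unadjusted p = 0.0214, adjusted p = 1.00). All 3 of its 15C4 libraries lay above all 3 IgG libraries, as for 2.88% of tested genes. Fut7, the fucosyltransferase of leukocyte selectin ligands, had 0 counts in all libraries but IgG 1, and Chst4, the sulfotransferase of lymph node venules, had 0 in all. St3gal6, a sialyltransferase, averaged 230 ± 30.1 CPM under 15C4 and 221 ± 81.2 CPM under IgG, and St3gal4, another, 73.8 ± 35.7 CPM under 15C4 and 53.8 ± 24.4 CPM under IgG (SD, n = 3 each). Gcnt1, which branches O-glycans, was at 4.404, 0 and 23.3 CPM under 15C4 and at 3.48, 0.622 and 0.171 CPM under IgG.

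Among the sialomucin relatives, 2 of 5 were tested and 0 called. Emcn (endomucin) was at 75.7, 234 and 44.0 CPM under 15C4 and at 147, 120 and 8.91 CPM under IgG, and Cd164 averaged 487 ± 105 CPM under 15C4 and 403 ± 34.5 CPM under IgG (SD, n = 3 each). Glycam1 had 0 counts in all libraries, and Madcam1, the addressin of gut venules, was detected in IgG 2 alone at 0.726 CPM. Of 13 other docking molecules, 8 were tested, with 2 above 0, 6 below and 0 called. Stab1, a scavenger receptor of sinusoidal and lymphatic endothelium, was at 11.1, 27.2 and 3.44 CPM under 15C4 and at 21.3, 115 and 6.94 CPM under IgG. Bst2 (tetherin) averaged 267 ± 21.4 CPM under 15C4 and 208 ± 32.8 CPM under IgG, and Cd81 316 ± 49.5 CPM under 15C4 and 342 ± 124 CPM under IgG (SD, n = 3 each).

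Of 11 junctional molecules of leukocyte passage, 9 were in the counts under these symbols and tested, 6 above and 3 below 0, with 0 called. Jam3 was at 13.1, 17.5 and 17.7 CPM under 15C4 and at 41.7, 26.7 and 41.3 CPM under IgG (log2 fold change -1.08, SE 0.62; edgeR adjusted p = 1.00). Its 15C4 libraries all lay below its IgG libraries, as for 6.64% of tested genes. Cd93 averaged 486 ± 213 CPM under 15C4 and 259 ± 193 CPM under IgG, and Cdh5 905 ± 372 CPM under 15C4 and 624 ± 577 CPM under IgG (SD, n = 3 each).

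The linkers that tie ICAM-1, VCAM-1 and podocalyxin to actin were all tested, 12 of 16 above and 4 below 0, with 0 called. Msn (moesin), the main endothelial linker of this kind, averaged 570 ± 64.3 CPM under 15C4 and 505 ± 153 CPM under IgG. Trio, a guanine nucleotide exchange factor, was at 59.2, 45.2 and 7.82 CPM under 15C4 and at 89.5, 119 and 67.4 CPM under IgG. Rhoa averaged 158 ± 28.2 CPM under 15C4 and 125 ± 27.3 CPM under IgG, and Rac1 489 ± 107 CPM under 15C4 and 424 ± 54.8 CPM under IgG (SD, n = 3 each).

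Of 22 genes of cytokine sensing and NF-kappaB, 14 were tested, with 10 above and 4 below 0 and 0 called. Cxcl10, an interferon-induced chemokine, was at 1424, 243 and 435 CPM under 15C4 and at 428, 1132 and 111 CPM under IgG. 15C4 1 and IgG 2, its highest libraries, were also those highest in Icam1. Nfkbia, which encodes the NF-kappaB inhibitor, was at 12.6, 58.7 and 11.1 CPM under 15C4 and at 44.2, 90.6 and 24.9 CPM under IgG. Ccl2 (MCP-1), a chemokine for monocytes, was at 0.119, 32.3 and 0.626 CPM under 15C4 and at 7.34, 0.311 and 0 CPM under IgG, with 15C4 2, the library of Sele, the highest. Il6 reached 6.95 CPM in 15C4 2 and, at 3.48 CPM, was otherwise detected in IgG 1 alone.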

How the data were processed

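RNA was sequenced from 6 libraries, 3 per group, prepared with Nextera XT after cDNA amplification (labels' protocols). The authors deposited whole-number counts per gene symbol. The submitters' processing notes name STAR 2.5b, featureCounts, fastp and DESeq2, and mm10 and mm9 are named without roles. Annotation and strand setting were not found there. The authors' series table holds the same counts for all 24394 symbols spelled alike. Per the file headers it adds normalised values, treated as a score because the authors rounded them after scaling, their means (a signal), a log2 fold change (IgG over 15C4) and p-values. Its overall mean lay within 5% of the mean of the 6 normalised columns for 1280 of the 8562 genes above 100. For Icam2 it was 1171, above both group means (441 under 15C4 and 369 under IgG), which these 6 libraries alone cannot give. Which other libraries entered the authors' fit is unknown.

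Counts were tested with edgeR 4.0.16 (R 4.3.3; TMM, filterByExpr with a minimum count of 10 and total of 15, treatment as the only term). Adjusted p is Benjamini-Hochberg over all tested genes. SE is the log2 fold change over the square root of F. CPM use library totals without TMM factors. Per kb divides by the exon union in GENCODE M21. Ratios to pan-endothelial counts were compared on a log2 scale by exact permutation over the 20 arrangements, with 0.5 added to every library of Sele and Selp. Alternatives used DESeq2 1.42.0 and limma 3.58.1. The fits were tested on simulated counts. The 3-count level covers counting error only, because reads copied by PCR and lacking identifiers need not be separate molecules. Named genes were all 8 members, the 2 tested genes of smallest p and the 2 most abundant of each of 7 pathway lists, and the 3 nearest in pattern; other genes, such as Ackr1, Vwf and Ccl2, were named after their values were seen. Members and lists were chosen with earlier results of these data known.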

Additional observations from a re-analysis of the deposited data

How the results depend on the processing

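No setting brought a member that it tested past an adjusted p of 0.05. Sele was tested only by edgeR without the filter, so the other settings say nothing about it. The count of all genes called was 0 with every library left out in turn (lowest and highest 0), with other scalings, with limma-voom, and without 15C4 3 and IgG 3 together. It was 26 with DESeq2 (3 higher, 23 lower) and 1 without the filter, 3830403N18Rik, which was at 0 counts under 15C4. Away from leaving out 1 library, the edgeR direction turned for Vcam1 with limma-voom (0.80) and Mcam without both libraries numbered 3 (-0.15), and the ratio to pan-endothelial counts for Icam1 without both (0.39). With 1 library left out, the log2 fold change ran between -0.34 and 1.63 for Icam1, -0.45 and 0.54 for Icam2, -1.18 and 0.28 for Vcam1, -10.8 and 1.26 for Selp, -0.34 and 0.79 for Cd34, -0.31 and 0.87 for Podxl and -0.33 and 0.61 for Mcam. The ratio to pan-endothelial counts ran between -1.60 and 0.38 for Icam1, -2.74 and 0.40 for Vcam1, -1.14 and 3.20 for Sele and -0.86 and 0.28 for Cd34, and stayed below 0 for Icam2, Selp, Podxl and Mcam. The cause was not tested. Over all genes tested, 11.2% lay all below under 15C4 on this scale and 0.179% all above. Libraries with the same number had correlations of deviations of -0.0381, 0.0628 and 0.0992, against -0.103 to 0.0664 for libraries of different numbers. The highest, 0.0992, was that of 15C4 3 with IgG 3. With so few libraries these values do not decide whether the numbers mark pairs. With the replicate number as a block edgeR called 0 genes, and Selp had a log2 fold change of -3.85. Sele, Selp and Vcam1 at 0 to 2 counts per library are at the limit of depth.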

Other observations

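Icam2 and Cxcr5 kept nearly the same ratio of counts in every library. Icam2 had 8.92, 8.54 and 9.26 times the counts of Cxcr5 in 15C4 1, 2 and 3, and 8.61, 8.81 and 8.66 times in IgG 1, 2 and 3. Cxcr5 was counted 24, 188 and 23 times in the 15C4 libraries and 28, 62 and 38 times in the IgG libraries. This pair was noticed because it was the closest match found for any member.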
